A study of Mus musculus with 12 samples.

Results

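A set of 9 genes of the first steps of T cell receptor (TCR) signalling was measured across 4 groups of CD4+ thymocytes: Cd3g, Cd3d, Cd3e, Cd247, Lck, Zap70, Lat, Themis and Rasgrp1. The set was defined by these gene names, with no threshold on their values, but it was chosen with earlier results of these data known. All 9 were measured in both deposited tables, among 13207 genes in all. The cells came from the thymus of C57BL/6 mice that were given tamoxifen, at 10 μg per g of their weight, by intraperitoneal injection and harvested 7 days later, and every group, the tdTomato– one included, came from mice treated in this way. The groups, of 3 RNA sequencing libraries each, were newly generated conventional T cells (Tconv, tdTomato+GFP–CD73–), newly generated regulatory T cells (Treg) without CD73 (CD73– Treg, tdTomato+GFP+CD73–) or with it (CD73+ Treg, tdTomato+GFP+CD73+) and bulk tdTomato– cells (tdTomato– Treg, GFP+, not divided by CD73). Sex, age, the alleles that carry tdTomato and GFP and what drives them are not given in the sources used here. Libraries are named by the letter A, B or D in their titles. Whether the 3 libraries of a group are 3 animals is not in the labels. The p-values therefore refer to the spread between libraries, which may be technical.

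The TCR itself has no signalling tail. It is held on the surface with the CD3 gamma, delta and epsilon chains and a zeta chain dimer, encoded by Cd3g, Cd3d, Cd3e and Cd247, whose tails carry tyrosine motifs. The kinase Lck, brought in by CD4 or CD8, phosphorylates these motifs, the kinase Zap70 docks on them, and Zap70 phosphorylates the membrane scaffold Lat. Rasgrp1 then activates Ras, and Themis is a thymocyte protein that tunes signal strength during selection. In the thymus the strength of this signal takes part in selection and in the choice of the regulatory T cell fate.

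The level of a gene is given as log2 CPM, the base 2 logarithm of its counts scaled to a common library size, and a difference of 1 is a doubling. The libraries had an effective depth of 11000000 to 21400000 counts, and the members were well covered, with 1040 (Zap70) to 15300 (Rasgrp1) counts behind a value. The authors scaled the CD73– and CD73+ Treg libraries in one table and the tdTomato– Treg and Tconv libraries in another, so tests were made only within a table. Between the tables, the mean level of 9942 genes differed by a median of 0.03 (quartiles −0.12 to 0.17), and levels set across tables carry this uncertainty. The gated genes followed the labels: mean Foxp3 stood at 9.16, 9.19 and 9.11 in CD73–, CD73+ and tdTomato– Treg and at 0.18 in Tconv, and mean Nt5e, which encodes CD73, at 5.54, 7.29, 8.21 and 3.88 in the same order. The share of CPM assigned to one gene, Lars2, was 22.9% to 30.2% in the libraries of the first table and 30.8% to 32.4% in tdTomato– Treg, against 16.1% in Tconv B and 26.7% and 27.4% in Tconv A and D. Summed CPM of 8 markers of CD8 and double-positive thymocytes was 37.6 to 96.8 in CD73– Treg, 29.5 to 35.2 in CD73+ Treg, 51.7 to 68.7 in tdTomato– Treg and 46.7 to 50.9 in Tconv, and none of the 8 was under 3 counts in every library of a group. The 3 measured markers of innate-like T and NK cells summed to 2.78 to 4.69 in CD73– Treg and 8.65 to 10.9 in the other groups. In the second table this sum hid genes that went opposite ways. Mean log2 CPM of Nkg7 was 3.13 in tdTomato– Treg and −0.81 in Tconv, and that of Zbtb16 was −0.53 and 2.94. In the second table, further lists had higher sums in tdTomato– Treg than in Tconv. The 5 B cell markers summed to 6.89 to 9.06 against 3.12 to 4.36, and 7 myeloid and dendritic markers to 26.7 to 36.0 against 20.2 to 21.4. The 2 measured thymic epithelial markers, of 5 listed, summed to 5.63 to 7.69 against 2.45 to 2.81. Foxn1, Krt5 and Psmb11 were not measured. Epcam made up most of the sum (mean log2 CPM 2.67 against 1.31), and Krt8 was low (−2.03 against −3.19). Genes within the B cell and myeloid lists went both ways. In mean log2 CPM, Cd79b was 2.14 against −1.07 and Ms4a1 was −1.47 against −0.42. Cst3 was 4.04 against 3.18, Lyz2 2.82 against 1.58 and Itgam 0.60 against 2.33. Summed erythroid and stromal markers overlapped between groups within each table, with Pecam1 by far the highest stromal gene (7.38 in tdTomato– Treg and 7.43 in Tconv). Single genes of these lists differed in the second table without overlap. Col1a2 (0.51 against −5.24) and Hba-a2 (5.14 against 4.44) were higher in tdTomato– Treg than in Tconv, and Cdh5 (−4.91 against 0.33) was lower. The part of such cells in the results was not tested.

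The CD3 chain genes lie side by side on chromosome 9, as 3 neighbours within 40055 bases. In the mm10 (GRCm38) build, Cd3g (ENSMUSG00000002033.14) spans 44969572 to 44980431 on the minus strand, Cd3d (ENSMUSG00000032094.8) 44981786 to 44987339 on the plus strand and Cd3e (ENSMUSG00000032093.7) 44998740 to 45009627 on the minus strand. Cd3g and Cd3d start back to back, 1355 bases apart, and the ends of Cd3d and Cd3e face each other 11401 bases apart. Because the 3 genes differed in how far they moved, the 250 bases upstream of each RefSeq start (GRCm38.p6) are shown, 5′ to 3′ on the strand of the gene. The windows are chr9:44980432-44980681 (minus strand) for Cd3g, chr9:44981536-44981785 (plus strand) for Cd3d and chr9:45009612-45009861 (minus strand) for Cd3e. Capitals mark matches, on either strand, to 4 motif cores of T cell transcription factors: GGAAGT (ETS), TGTGGT (RUNX), CAGGTG (E-box) and CTTTGA (TCF/LEF).
Cd3g: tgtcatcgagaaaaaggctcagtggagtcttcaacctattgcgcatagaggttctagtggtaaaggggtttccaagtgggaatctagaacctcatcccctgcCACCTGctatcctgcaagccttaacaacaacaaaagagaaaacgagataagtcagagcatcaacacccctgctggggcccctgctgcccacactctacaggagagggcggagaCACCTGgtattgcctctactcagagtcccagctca
Cd3d: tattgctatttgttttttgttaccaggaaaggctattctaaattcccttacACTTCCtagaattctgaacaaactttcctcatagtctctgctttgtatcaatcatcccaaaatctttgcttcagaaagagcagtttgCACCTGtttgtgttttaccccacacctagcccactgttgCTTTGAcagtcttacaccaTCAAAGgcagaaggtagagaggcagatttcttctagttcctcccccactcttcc
Cd3e: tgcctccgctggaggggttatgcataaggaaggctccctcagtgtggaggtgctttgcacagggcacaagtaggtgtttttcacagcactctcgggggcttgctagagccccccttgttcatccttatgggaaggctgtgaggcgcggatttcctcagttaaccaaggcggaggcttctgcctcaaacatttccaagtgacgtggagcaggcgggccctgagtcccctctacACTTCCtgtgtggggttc
Counted back from the start, the Cd3g window held E-box matches at −148 and −35. The Cd3d window held an ETS match at −199, an E-box match at −112 and TCF/LEF matches at −73 and −54, and the Cd3e window held an ETS match at −18. Among 32851 RefSeq promoter windows of the same length, 19.7% held the ETS letters, 14.0% the RUNX letters, 17.2% the E-box letters and 13.8% the TCF/LEF letters. A match describes letters only.

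The upstream windows of Themis, the member with the largest differences, and of Zap70, the member that passed in neither comparison with all libraries, are shown for contrast. They are chr10:28668110-28668359 (plus strand) for Themis and chr1:36761548-36761797 (plus strand) for the first of the Zap70 start sites.
Themis: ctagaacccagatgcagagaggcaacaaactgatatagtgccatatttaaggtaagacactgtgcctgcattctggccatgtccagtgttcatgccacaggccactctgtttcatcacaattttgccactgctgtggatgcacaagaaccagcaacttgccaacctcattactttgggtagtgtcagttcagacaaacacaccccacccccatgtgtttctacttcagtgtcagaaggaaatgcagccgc
Zap70: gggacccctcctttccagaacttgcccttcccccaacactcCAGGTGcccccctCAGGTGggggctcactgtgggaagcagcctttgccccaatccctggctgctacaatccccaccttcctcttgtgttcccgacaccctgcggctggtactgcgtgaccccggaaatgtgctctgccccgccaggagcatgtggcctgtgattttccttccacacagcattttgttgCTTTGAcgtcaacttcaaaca
The Themis window held none of the 4 motifs. The Zap70 window held E-box matches at −209 and −196 and a TCF/LEF match at −21. None of the matches in the 5 printed windows overlapped another.

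The comparison of tdTomato– Treg with newly generated Tconv sets Treg that carry no time stamp beside conventional cells that do. Of the 9 members, 8 were lower in tdTomato– Treg and their libraries did not overlap with those of Tconv. Zap70 was the exception. Over all 11198 genes tested, 52.1% were past the threshold (adjusted p under 0.05), 25.7% lower and 26.4% higher in tdTomato– Treg. Groups did not overlap for 60.9% of all genes, and for 30.5% they did not overlap with tdTomato– Treg lower. The median log2 fold change of the members was −0.52, and that of all tested genes was −0.01. The groups differ in lineage, in tdTomato and in the gate on CD73, which cannot be told apart, nor can fewer cells of a type be told from less RNA per cell in bulk samples.

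Themis (ENSMUSG00000049109.15, chromosome 10, 28668360 to 28883818) differed most among the members. It had a log2 CPM of 6.87, 6.88 and 6.92 in tdTomato– Treg A, B and D and of 8.28, 8.31 and 8.27 in Tconv A, B and D. The libraries of each group lay within a few hundredths of each other, far below in Treg and far above in Tconv. The log2 fold change was −1.40 (SE 0.06, 95% confidence interval −1.52 to −1.27; limma adjusted p = 4.04e-12). Only 2.82% of all tested genes had a lower one. The summed CD8 and double-positive thymocyte markers were higher in the tdTomato– Treg libraries, where Themis was lower, but the genes of that list disagreed. Of 6 tested, 2 passed as higher (Rag1, 1.38, and Arpp21, 1.19) and 1 as lower (Cd8b1, −0.89), with a median log2 fold change of −0.25. The part of such cells in the Themis difference was not tested.

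Among the chains of the receptor complex, Cd3g and Cd247 differed more than Cd3d and Cd3e. Cd3g, the gamma chain, was 7.43, 7.54 and 7.57 in tdTomato– Treg A, B and D and 8.28, 8.64 and 8.33 in Tconv A, B and D. All Tconv values were above all Treg values, and Tconv B, the library with the lowest Lars2 share, was the highest. The log2 fold change was −0.90 (SE 0.08, interval −1.06 to −0.74; limma adjusted p = 3.5e-08), and −0.79 without Tconv B. Cd247 (ENSMUSG00000005763.15, chromosome 1, 165788681 to 165877277), the zeta chain, was 7.45, 7.50 and 7.53 against 8.22, 8.36 and 8.30. The groups were separate, with a log2 fold change of −0.80 (SE 0.05, interval −0.91 to −0.69; limma adjusted p = 8.43e-10). Cd247 shares 3007 exonic bases with Pou2f1 on the opposite strand, and whether the authors counted by strand is not given in the sources used here. Pou2f1, a transcription factor gene, differed the other way (log2 fold change 0.57, SE 0.06; limma adjusted p = 6.84e-07).

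Cd3d, the delta chain, was 6.98, 7.07 and 6.99 in tdTomato– Treg A, B and D and 7.47, 7.59 and 7.47 in Tconv. Cd3e, the epsilon chain that pairs with both the gamma and the delta chain, was 8.51, 8.54 and 8.49 against 8.86, 8.97 and 8.82. For both genes every Treg library lay below every Tconv library, by less than for Cd3g. The log2 fold changes were −0.50 (SE 0.05, interval −0.61 to −0.38; limma adjusted p = 8.02e-07) for Cd3d and −0.37 (SE 0.05, interval −0.48 to −0.26; limma adjusted p = 1.19e-05) for Cd3e. Neither interval overlapped that of Cd3g, which was not tested as a difference between genes.

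Of the kinases, Lck fell and Zap70 did not pass the test. Lck (ENSMUSG00000000409.14, chromosome 4, 129548344 to 129573641) was 8.69, 8.69 and 8.70 in tdTomato– Treg A, B and D and 9.07, 8.97 and 9.09 in Tconv. The Treg libraries were nearly identical, and all were below Tconv (log2 fold change −0.35, SE 0.05, interval −0.46 to −0.24; limma adjusted p = 2.43e-05). Zap70 (ENSMUSG00000026117.10, chromosome 1, 36761798 to 36782818) was 6.64, 6.63 and 6.57 against 6.82, 6.48 and 6.85. The groups overlapped because Tconv B was below all 3 Treg libraries. The log2 fold change was −0.10 (SE 0.11, interval −0.33 to 0.13; limma adjusted p = 0.45). Without the 4 libraries of letter B it was −0.23 and past the threshold (limma adjusted p = 0.0057).

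The scaffold and the Ras activator were both lower in tdTomato– Treg. Lat (ENSMUSG00000030742.7, chromosome 7, 126363824 to 126369570) was 6.95, 7.14 and 7.01 in tdTomato– Treg A, B and D and 7.66, 7.81 and 7.78 in Tconv. Every Treg library was below every Tconv library (log2 fold change −0.72, SE 0.06, interval −0.85 to −0.59; limma adjusted p = 4.0e-08). Rasgrp1 (ENSMUSG00000027347.18, chromosome 2, 117279993 to 117343001) was 9.03, 8.91 and 8.99 against 9.52, 9.48 and 9.49. Its groups were separate too, with Tconv libraries close together (log2 fold change −0.52, SE 0.05, interval −0.62 to −0.42; limma adjusted p = 4.86e-08). The 8 calls in this comparison held under each of the 23 alternatives, the one that rescales the libraries without Lars2 included.

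**Figure D1:**
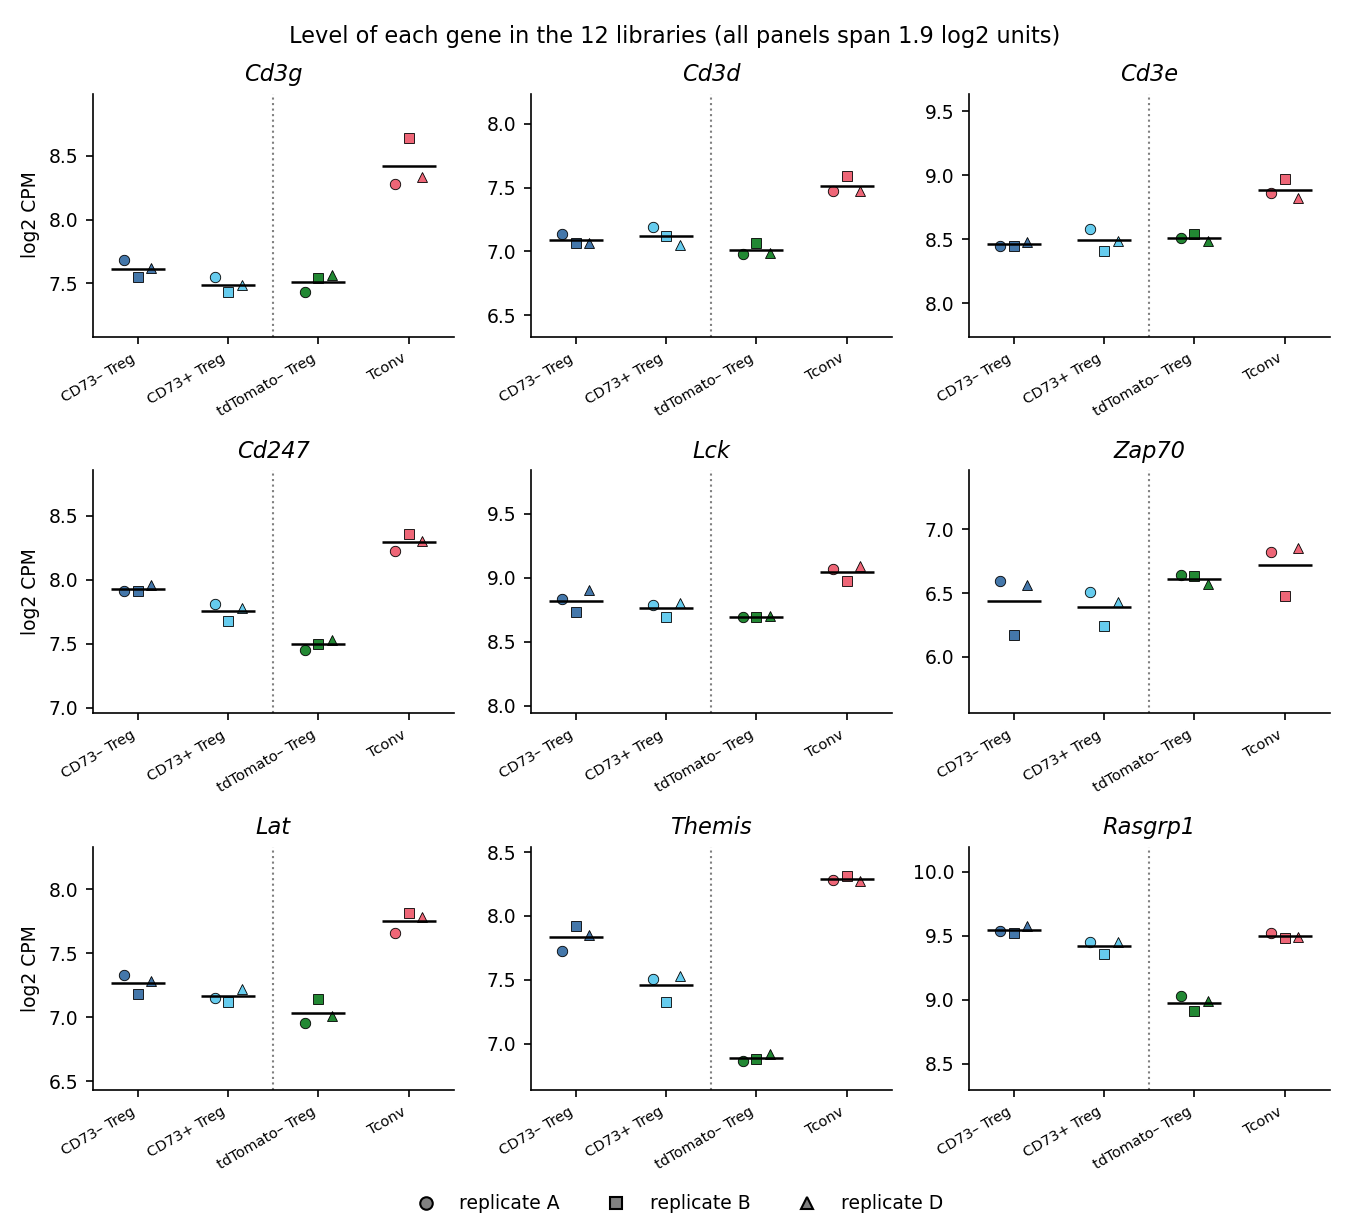
Level of each member (log2 CPM, one panel per gene, all panels spanning the same range) in the 12 libraries, with the group mean as a bar, the replicate letter as the symbol and a dotted line between the separately scaled tables. Themis groups are separate on each side of the line, with means of 7.83 and 7.46 on the left and 6.89 and 8.29 on the right. In Zap70 the B libraries of CD73– Treg, CD73+ Treg and Tconv sit lowest in their groups.

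The comparison of CD73+ with CD73– Treg asks how newly generated Treg that carry CD73 differ from those that do not. Of the 9 members, 1 passed the test, which had no replicate block: Themis was lower in CD73+ Treg. Over all 11170 genes tested, 2.44% were past the threshold, 0.654% lower and 1.79% higher in CD73+ Treg. With the replicate letter as a block, 3 members passed, beside 630 of all genes tested. The 3 members Themis, Cd247 and Rasgrp1 had lower CD73+ values with no overlap, and 8.18% of all genes did so. The median log2 fold change was −0.10 over the members and 0.01 over all tested genes.

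Themis levels were 7.73, 7.92 and 7.85 in CD73– Treg A, B and D and 7.51, 7.33 and 7.53 in CD73+ Treg A, B and D. The highest CD73+ library was below the lowest CD73– library, and the difference within a letter was −0.22 for A, −0.59 for B and −0.32 for D. The log2 fold change was −0.38 (SE 0.06, interval −0.50 to −0.25; limma adjusted p = 0.0027). It passed in 22 of 23 alternatives, and without the 4 libraries of letter D it was −0.41 and missed the threshold (limma adjusted p = 0.0552). The authors' deposited table gives Themis a log2 fold change of −0.38 with an adjusted p of 0.0113. The summed CD8 and double-positive thymocyte markers moved with it. They were 46.0, 96.8 and 37.6 in CD73– Treg A, B and D and 35.2, 33.1 and 29.5 in CD73+ Treg. Without CD73– Treg B, the library highest in both, the Themis difference was −0.33 (limma adjusted p = 0.0089), with the marker sums of CD73– Treg A and D still above all of CD73+ Treg. The part of double-positive cells in the Themis difference was not tested.

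Cd247 and Rasgrp1 had smaller differences. Cd247 was 7.91, 7.91 and 7.96 in CD73– Treg A, B and D and 7.81, 7.68 and 7.78 in CD73+ Treg. Every CD73+ value was lower, and the log2 fold change of −0.17 (SE 0.05, interval −0.28 to −0.06) did not pass after adjustment (limma adjusted p = 0.0923). Rasgrp1 was 9.54, 9.52 and 9.58 against 9.45, 9.36 and 9.45, again without overlap, and its log2 fold change of −0.13 (SE 0.05, interval −0.22 to −0.03) did not pass (limma adjusted p = 0.152). With the replicate letter as a block over all 12 libraries, both passed (limma adjusted p = 0.0403 for Cd247 and 0.0487 for Rasgrp1). Themis stayed past the threshold (limma adjusted p = 5.5e-04). By a cut-off of 0.1 on the correlation between libraries, whether the letters pair them depended on the genes used. Values within a letter were above those between letters with both sets of genes.

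The other 6 members were not past the threshold in this comparison, and their libraries overlapped. Cd3g was 7.68, 7.55 and 7.62 in CD73– Treg and 7.55, 7.43 and 7.49 in CD73+ Treg (log2 fold change −0.13, interval −0.29 to 0.03). Cd3d was 7.14, 7.07 and 7.07 against 7.19, 7.12 and 7.05 (0.03, −0.09 to 0.14), and Cd3e was 8.45, 8.45 and 8.48 against 8.58, 8.41 and 8.49 (0.03, −0.07 to 0.14). For Cd3d and Cd3e the CD73+ libraries spread to both sides of the CD73– libraries. Lck was 8.83, 8.73 and 8.90 against 8.79, 8.69 and 8.80 (−0.06, −0.17 to 0.05), and Lat was 7.33, 7.18 and 7.28 against 7.15, 7.12 and 7.22 (−0.10, −0.23 to 0.03). Zap70 was 6.59, 6.17 and 6.56 against 6.51, 6.24 and 6.43 (−0.05, −0.28 to 0.18), with the B library lowest in both groups. Among the 9 members, Zap70 had the widest interval, and its SE was 0.11, or 0.07 with the replicate block. It also had the fewest counts. Within letters, Cd3g (−0.13, −0.12 and −0.13 for A, B and D), Lck (−0.04, −0.04 and −0.10) and Lat (−0.18, −0.06 and −0.06) were lower in CD73+ Treg in all 3 pairs. With the replicate block none of these passed (limma adjusted p = 0.324, 0.407 and 0.336). The share of all genes with the same sign in all 3 pairs was not counted.

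**Figure D2:**
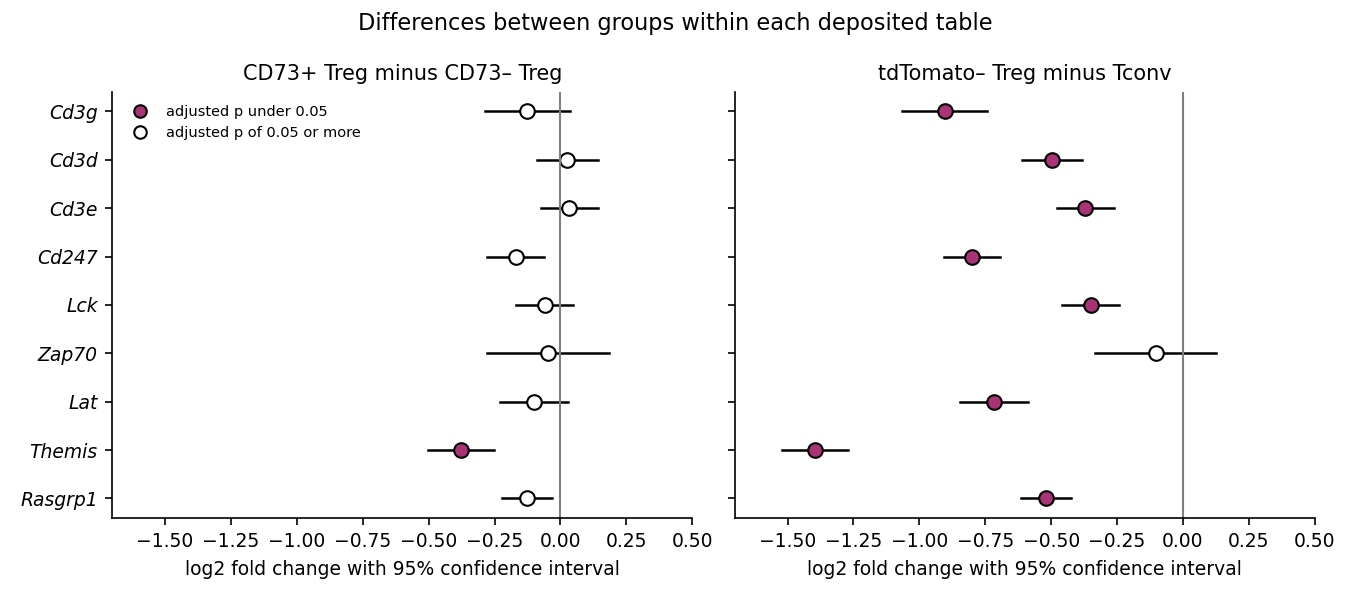
Log2 fold change of each member with its 95% confidence interval in each comparison, filled where the adjusted p is under 0.05. On the left only Themis (−0.38) is filled, and on the right all but Zap70 are, from −0.35 (Lck) to −1.40 (Themis).

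To set all 4 groups side by side without the scaling of the tables, each member was also expressed relative to the mean log2 CPM of Cd3g, Cd3d and Cd3e in the same library, as a description with no test. Relative to these CD3 chains, Themis was 0.11 ± 0.13 (SD, n = 3) in CD73– Treg, −0.24 ± 0.09 in CD73+ Treg, −0.79 ± 0.04 in tdTomato– Treg and 0.02 ± 0.09 in Tconv. The CD73– Treg and Tconv libraries overlapped, and the other pairs of groups did not. That overlap depended on the reference: CD73– Treg were above Tconv by 0.35 with Cd3g alone and below by 0.41 with the median of all genes, both without overlap. The order of the 3 Treg groups was the same with Cd3e, Cd3d or Cd3g alone, or the median of all genes, as the reference: tdTomato– Treg were below CD73+ Treg by 0.46 to 0.62, and CD73+ Treg below CD73– Treg by 0.25 to 0.41. Relative Cd247 had the same order, at 0.20 ± 0.04 in CD73– Treg, 0.06 ± 0.04 in CD73+ Treg and −0.19 ± 0.03 in tdTomato– Treg, and the group means kept this order with each of those references. With Cd3g alone the CD73+ and CD73– libraries overlapped, with a difference of −0.04 in place of −0.15. Tconv, at 0.02 ± 0.07, overlapped with CD73+ Treg, and stood 0.33 above CD73– Treg with the median as the reference.

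Relative Rasgrp1 divided the groups differently: CD73– Treg had 1.82 ± 0.04 and CD73+ Treg 1.72 ± 0.05, against 1.30 ± 0.10 in tdTomato– Treg and 1.23 ± 0.13 in Tconv. Both newly generated Treg groups were above Tconv with no overlap, by 0.60 and 0.49, while tdTomato– Treg overlapped with Tconv. With the median of all genes as the reference these differences from Tconv were 0.09 and −0.07, and −0.56 for tdTomato– Treg. Mean log2 CPM of Rasgrp1 itself was 9.55 in CD73– Treg, 9.42 in CD73+ Treg, 8.98 in tdTomato– Treg and 9.50 in Tconv. The newly generated Treg groups thus stood close to Tconv in level, which was not tested across separately scaled libraries. Relative Lck was above Tconv (0.77 ± 0.18) in all 3 Treg groups (1.10 ± 0.07, 1.06 ± 0.06 and 1.01 ± 0.04), and against the median of all genes it was below Tconv in all 3, by 0.18, 0.27 and 0.39. Comparisons of these relative values with Tconv changed sign with the reference for all 6 members, with exceptions for 2 of them: Themis was below Tconv in tdTomato– Treg, and Rasgrp1 above Tconv in CD73– Treg, with every reference. Relative Zap70 was −1.28 ± 0.21, −1.31 ± 0.09 and −1.07 ± 0.06 in CD73–, CD73+ and tdTomato– Treg and −1.55 ± 0.32 in Tconv, and tdTomato– Treg were above Tconv by 0.49. With the median of all genes they were below Tconv by 0.15, with overlap. They stood above CD73+ Treg without overlap with each reference, and overlapped with CD73– Treg with Cd3e alone or the median (differences of 0.12 and 0.09). Relative Lat overlapped between all pairs of groups but tdTomato– and CD73– Treg, which differed by −0.19.

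**Figure D3:**
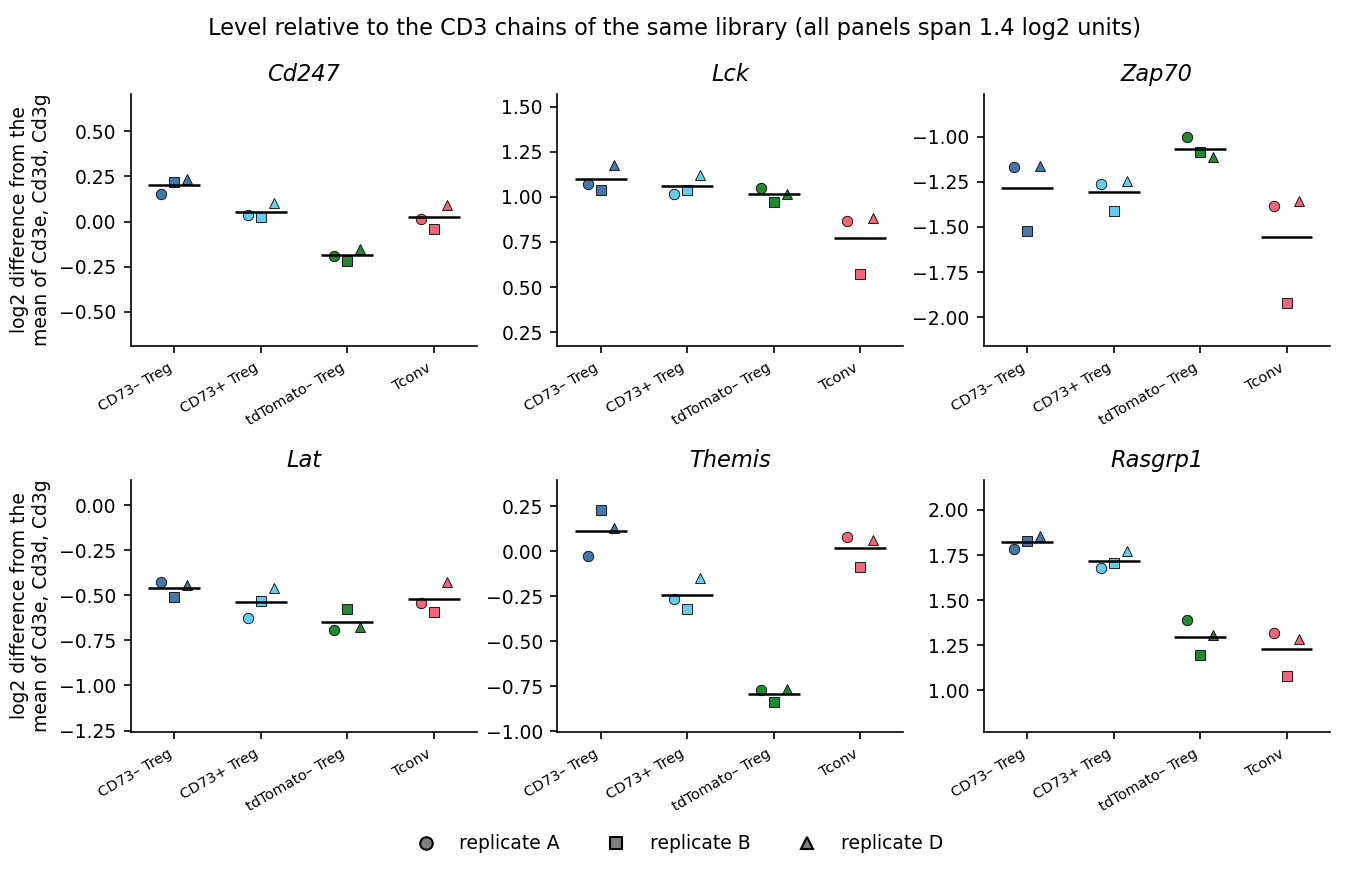
Log2 level of 6 members relative to the mean of Cd3e, Cd3d and Cd3g in the same library, by group, with group means as bars and replicate letters as symbols. Rasgrp1 relative to the CD3 chains separates both newly generated Treg groups (means 1.82 and 1.72) from tdTomato– Treg (1.30) and Tconv (1.23), while relative to the median of all genes CD73– Treg lie above and CD73+ Treg below Tconv, and Themis is lowest in tdTomato– Treg (−0.79).

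Levels were also compared between the members per length, as CPM per kb of the principal transcript. In the Treg groups the order began with Cd3e, Lck and Cd3g, at 241, 207 and 192 CPM per kb in CD73– Treg, 246, 198 and 176 in CD73+ Treg and 250, 189 and 179 in tdTomato– Treg. In Tconv it began with Cd3g (334) and Cd3e (323), whose libraries overlapped, before Lck (241). Cd247, Rasgrp1 and Lat came next, at 149, 143 and 124 CPM per kb in CD73– Treg and 133, 131 and 116 in CD73+ Treg. In tdTomato– Treg and in Tconv, Lat (106 and 174) stood above Rasgrp1 (96.3 and 138), and Cd247 was 110 and 192. Cd3d followed at 79.9 to 113. Zap70 and Themis were the lowest pair in every group: 38.7 and 44.9 in CD73– Treg and 37.4 and 34.6 in CD73+ Treg, where their libraries overlapped, 43.6 and 23.3 in tdTomato– Treg, where Themis was below, and 46.9 and 61.4 in Tconv, where Themis was above. Neighbours that overlapped besides those named were Lck and Cd3g in CD73– Treg, Cd247 and Rasgrp1 in CD73+ Treg and Cd247 and Lat in tdTomato– Treg. This order depends on the length used. Per kb of all annotated exons, Lck came first in every group (154 in CD73– Treg, 148 in CD73+ Treg, 141 in tdTomato– Treg and 180 in Tconv). Rasgrp1 was then second in every group, at 134, 122, 90.0 and 129, though in tdTomato– Treg it was nearly level with Cd3e (89.6). Cd3g, at 55.0 in CD73+ Treg and 55.9 in tdTomato– Treg, was below Cd3d, at 76.6 and 71.2, and it was below Cd3d in CD73– Treg as well. Zap70 and Themis remained the lowest pair, with Themis below Zap70 in every group (26.7 against 35.2 in Tconv).

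The genes whose pattern was most like that of each member were taken as the 2 with the smallest root mean square difference over the 12 libraries, in log2 CPM centred on each table, among 10797 genes. For Cd3g they were Cd4, at 0.05, and Zbtb34, at 0.07. For Cd247 they were Srpk1 (0.03) and again Cd4 (0.04), for Rasgrp1 Foxp1 (0.03) and Ets1 (0.04), and for Lck Tle3 and Abl1 (both 0.03). The nearest genes to Themis, Arl4c (0.10) and Fam78a (0.10), were farther away than those of any other member. This distance is not scaled by the size of a gene's differences, which were largest for Themis, so it does not show an unusual pattern. The closest members among themselves were Cd3d and Cd3e (0.06), followed by Cd247 and Lat (0.07). This ranks likeness over libraries that share table, scaling and group.

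The wider pathway was described through 90 further genes in 6 lists drawn from general knowledge, of which 87 were tested in each comparison. In tdTomato– Treg against Tconv, 55 of them passed, 20 higher and 35 lower, beside 52.1% of all tested genes (26.4% higher and 25.7% lower), with a median log2 fold change of −0.05 where that of the members was −0.52. Of 12 coreceptors, costimulators and kinases, 7 fell and 1 rose. Those that fell included Cd4 (−0.84), the coreceptor that carries Lck, and the Tec family kinase Txk (−0.98), while Tec itself rose (0.95). Of 17 tested adaptors and enzymes of the LAT complex, 8 fell and 3 rose. Among these, the scaffold Pag1, which holds the inhibitory kinase Csk at the membrane, fell by 1.19 on the log2 scale, Grap2, the adaptor that links Lat to SLP-76, fell by 0.68 and Tespa1, a thymocyte signalling protein, fell by 0.73. Grap (0.27), Sh2d2a (0.22) and Fyb (0.17) rose.

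Inhibitors of proximal signalling moved in both directions in that comparison, with 9 of 25 higher and 7 lower. Ptprj, the receptor phosphatase CD148, rose from 1.61 ± 0.20 in Tconv to 5.79 ± 0.07 in tdTomato– Treg (log2 fold change 4.18; limma adjusted p = 3.59e-14). Spry1, a Sprouty antagonist of Ras signalling, rose from 1.55 to 4.92 (3.37), and Ubash3b, a phosphatase that acts on TCR kinases, rose by 1.21. Ptpn6, the phosphatase SHP-1, fell by 0.83, the Ras GTPase-activating protein gene Rasal3 by 0.69 and Spred2 by 0.54. In the Ras and MAP kinase branch 4 of 14 fell and 3 rose. Rasgrp2, a Rap activator related to Rasgrp1, fell by 1.42 on the log2 scale, Nras by 0.62 and Rasgrp4 by 0.62, and Ksr1 (0.83), Braf (0.55) and Map2k2 (0.26) rose. Of 15 calcium and NFAT genes 6 fell and 4 rose. Among store-operated calcium entry genes, Orai3 (1.03) and Stim2 (0.74) rose and Orai2 fell by 0.56, while Nfatc2 rose (0.32), Ppp3r1 fell by 0.51 and Itpr1 fell by 0.60.

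In CD73+ against CD73– Treg, 9 of the 87 wider pathway genes passed, 2 higher and 7 lower, beside 2.44% of all tested genes (1.79% higher and 0.654% lower). Those that fell were Txk (−0.38, SE 0.08; limma adjusted p = 0.015), Rasgrp2 (−0.41; limma adjusted p = 0.0157), Tespa1 (−0.32), Grap2 (−0.27), Pag1 (−0.20), Ubash3a (−0.20) and Nfatc3 (−0.17). Ubash3a was one of 3 listed inhibitors that passed, and the other two, Ptprj (0.52; limma adjusted p = 0.035) and Ubash3b (0.36; limma adjusted p = 0.0431), rose. This count depended on single libraries. It was 1 without CD73+ Treg A, without CD73+ Treg B or without CD73– Treg D, and 3 without CD73– Treg A. It was 4 without CD73+ Treg D, tdTomato– Treg A or tdTomato– Treg D, and 5 without CD73– Treg B, tdTomato– Treg B or Tconv D. Txk and Rasgrp2 each passed in 18 of 23 alternatives, and Nfatc3 passed in 4.

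**Figure D4:**
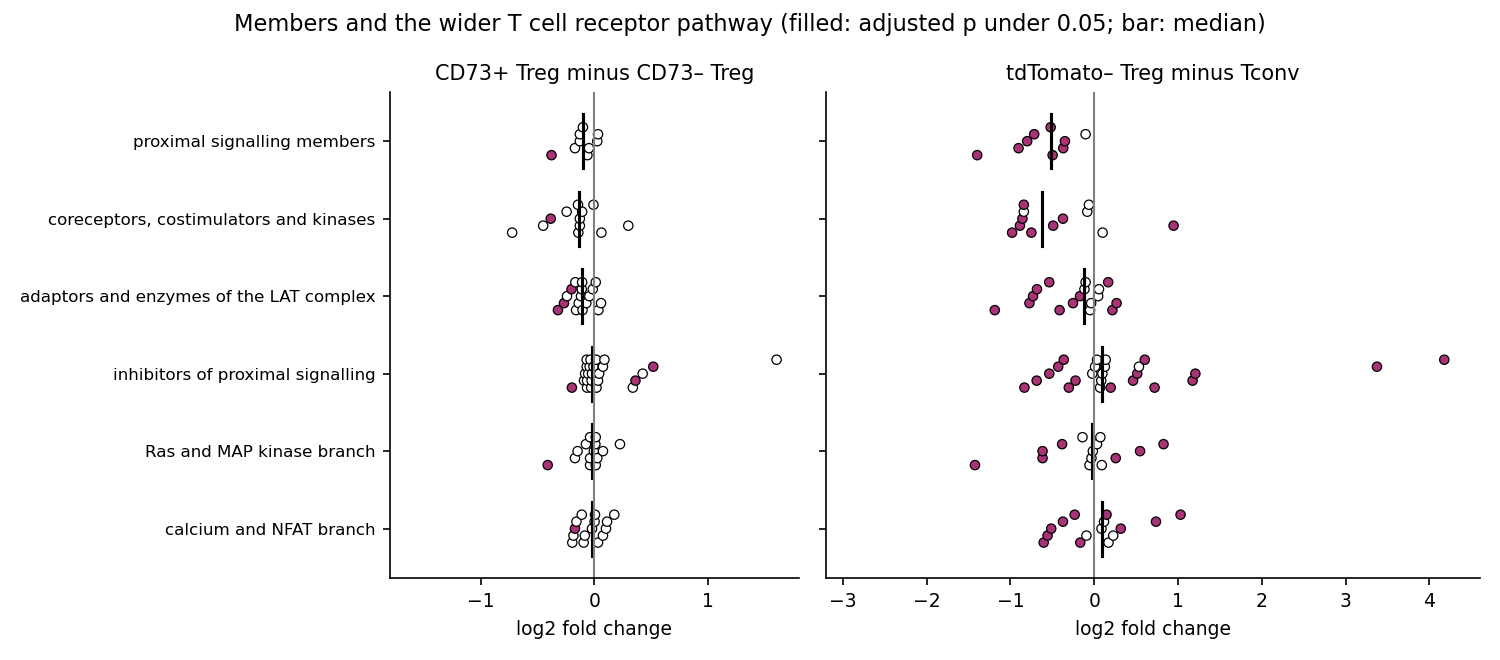
Log2 fold change of the members and of the genes of 5 wider pathway lists in each comparison, one point per gene, filled where the adjusted p is under 0.05, with the list median as a bar. On the right the members (median −0.52) and the coreceptors, costimulators and kinases (median −0.62) lie mostly below 0, while inhibitors spread from −0.83 (Ptpn6) to 4.18 (Ptprj).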

How the data were processed

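Per the labels, sequencing libraries were prepared from TRIzol-extracted RNA using a KAPA RNA HyperPrep kit. The mm10 build and the tools STAR, RSEM and limma are named in the submitters' processing notes, and their versions are not given in the sources used here. Values were deposited by the authors as log2 CPM per gene and library, with an offset of 0.5 count read from the values, in 2 separately filtered and normalised tables of 6 libraries. The deposited files also give a moderated t statistic, a score per gene that was not used, and p-values and adjusted p-values, of which only those printed as the authors' were taken.

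The members and the gene lists were chosen with earlier results of these data known. All 12 libraries entered a limma 3.58.1 fit (R 4.3.3) with 4 group means and no block, an intensity trend and 8 residual degrees of freedom. The fit used genes that reached a log2 CPM of 0 in 3 or more libraries. Two-sided p-values had Benjamini-Hochberg adjustment across every gene tested, with a threshold of 0.05. Levels are mean ± SD (n = 3), and SE is that of the fit. The fit was tested on simulated data. Depth was read from the lowest value of a library, and counts behind a value cover counting error only. Gene positions come from GENCODE M21, which held 13088 of 13207 gene IDs with their versions (99.1%), and promoters from RefSeq (GRCm38.p6). All 9 members were found in both.

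The named genes of a wider list were up to 3 per direction and comparison among those past the threshold without overlap between groups, by p-value, and some of them are not reported here. Whether letters pair libraries was checked by correlating the libraries' deviations from their group mean over 9942 genes. Between CD73+ and CD73– Treg it was 0.146 for A, 0.266 for B and 0.222 for D. All were above 0.1, the value set for taking the letters as pairs, but the main fit had no block. The fit with the replicate block is given as an alternative. Between tdTomato– Treg and Tconv it was 0.117, 0.114 and 0.0536. Over a wider set of 11167 genes the CD73+ and CD73– Treg values were 0.110, 0.0823 and 0.0583, and only A was above 0.1. By the cut-off of 0.1, the pairing thus depended on the genes used. Between different letters of CD73+ and CD73– Treg the values were at most 0.0082 over 9942 genes and 0.0033 over 11167. Both were below every value within a letter. Between tdTomato– Treg and Tconv, A with D was 0.0652 over 9942 genes, above D with D. Deviations within a group sum to 0, so values within and between letters are not independent. The replicate block was an effect per letter shared by all 12 libraries. Alternatives were other filters, a pseudocount of 1 CPM, quantile normalisation, rescaling without Lars2, only the groups compared, the replicate block, no trend, and leaving out each library or letter.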

Additional observations from a re-analysis of the deposited data

How the results depend on the processing

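No result past the threshold changed direction under the 23 alternatives. In tdTomato– Treg against Tconv, 8 members passed throughout, 9 without letter B, and the wider pathway count of 55 stayed between 49 and 57. In CD73+ against CD73– Treg, the member count of 1 became 3 with the replicate block and 0 without the 4 libraries of letter D (limma, 2 at an unadjusted p under 0.05). The wider pathway count of 9 was 12 with the replicate block, 5 with quantile normalisation and 3 with only the 2 groups compared. It was 0 with no intensity trend (21 at an unadjusted p under 0.05, limma) and 0 without letter A (15), 4 without letter B and 1 without letter D, and leaving out 1 library gave 1 to 10. The cause was not tested. The replicate block changed no other call of a member. Of 198 relative differences under another reference, 43 had the opposite sign, 22 of them with the median of all genes. Zap70 had the least precise differences (SE 0.11). In CD73+ against CD73– Treg its SE was 0.07 with the replicate block.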
